A study of Mus musculus with 6 samples.

Results

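The genes described here are 45 genes that dividing cells use to copy and separate their chromosomes, measured by bulk RNA sequencing of mouse thoracic aorta. They were chosen by name as cell cycle and proliferation genes, and each was found by its Ensembl identifier among the 52636 genes of the deposited table. All 45 had counts and entered the test. There were 6 libraries, from male mice at 12 weeks of age. WT mice (n = 4 libraries) were untreated C57BL/6J. Tgfbr1/2iSMCKO mice (KO, n = 2 libraries) were Tgfbr1f/f Tgfbr2f/f with Myh11-CreERT2 and mT/mG, that is, loxP-flanked alleles of both receptor genes with an inducible Cre and a membrane reporter. Tamoxifen was injected into the peritoneum of KO mice on 5 consecutive days (2 mg daily), beginning at 11 weeks. The Myh11 promoter limits this Cre to smooth muscle cells (SMCs), whereas RNA was taken from thoracic aortas free of hemorrhagic lesions, whose endothelial, adventitial and blood cells keep the receptors. The groups differed at every one of these alleles and in tamoxifen, so that effects of receptor loss, Cre, reporter, strain background and drug cannot be told apart. The labels number the libraries and do not say which mice each came from, so that p-values measure the spread between libraries, which may in part be technical.

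Most cells of an adult artery rest outside the cell cycle. On entry, cyclin E and the E2F factors switch on the genes of DNA replication, among them the 6 subunits of the MCM helicase that opens the double helix. Later, in G2 and mitosis, cyclins A and B, the kinases they activate and the proteins of the kinetochore, spindle and midbody are made and then destroyed. TGF-β is known as a brake on the division of many cell types, acting through CDK inhibitors and through lower Myc.

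Promoters of this gene group share short sequence motifs, and stretches from 4 genes that passed the test below are shown because they hold these motifs close together. The sequences are RefSeq windows on GRCm38.p6, of 250 bases before and 50 bases after a start site, and 39 of the 45 genes had a window. In the stretches from Mki67, Top2a and Prc1, capitals mark CCAAT, the box that NF-Y binds, and the TTTGAA form of the cell cycle genes homology region (CHR), which MuvB complexes bind, each read on either strand. For Mcm6, the capitals mark CCAAT and E2F forms on either strand, and the run TTTGGCGCGAAA holds 2 overlapping matches, TTTGGCGC on the strand shown and TTTCGCGC on the other.
Mki67, chr7:135716380-135716529, minus strand: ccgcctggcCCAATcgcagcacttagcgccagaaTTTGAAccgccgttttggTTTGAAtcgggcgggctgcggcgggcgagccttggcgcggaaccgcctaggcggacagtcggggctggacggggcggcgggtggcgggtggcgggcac
Top2a, chr11:99024190-99024439, minus strand: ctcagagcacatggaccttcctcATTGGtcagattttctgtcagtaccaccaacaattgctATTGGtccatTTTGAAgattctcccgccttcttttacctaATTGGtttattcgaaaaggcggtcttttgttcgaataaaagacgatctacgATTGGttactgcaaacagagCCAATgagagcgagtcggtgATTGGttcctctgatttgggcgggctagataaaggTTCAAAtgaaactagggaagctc
Prc1, chr7:80294351-80294455, plus strand: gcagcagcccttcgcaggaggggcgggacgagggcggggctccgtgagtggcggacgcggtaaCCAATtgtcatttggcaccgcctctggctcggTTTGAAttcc
Mcm6, chr1:128359706-128359855, minus strand: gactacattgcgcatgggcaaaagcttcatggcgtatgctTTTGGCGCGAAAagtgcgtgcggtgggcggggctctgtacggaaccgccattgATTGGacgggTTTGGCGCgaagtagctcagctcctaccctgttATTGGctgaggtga

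Across the windows, CCAAT was found for 30 of 39 genes (76.9%), against 41.1% of the 27025 genes in the RefSeq table. A CHR, searched as TTTGAA or as TTTAAA on both strands (TTTAAA reads alike on both), was found for 29 genes (74.4%), against 30.6%. TTTGAA alone was found for 21 (53.8%), against 20.2%. Both motifs stood in the same window of 24 genes (61.5%), against 12.2% of all genes. Of the 26 mitotic genes with a window, 23 held a CHR, and of the 11 replication genes 5 did. The E2F forms TTTGGCGC, TTTCCCGC, TTTGCCGC and TTTCGCGC, searched on both strands with overlaps allowed, were found for 6 of 39 (15.4%), against 2.6%. They were found for 5 of 11 replication genes, Mcm3, Mcm5, Mcm6, Mcm7 and Uhrf1, and among mitotic genes for Cdk1. A match is a stretch of letters and not a measured binding site. Genes with several start sites have several windows, and a match in any of them was counted. Kif20a, Tpx2, Ccna2, Ccne2, Aurkb and Mcm4 had no window.

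Total estimated counts ran from 19650983 to 28860598 per library. The columns carry short codes and not the group names. They were read as WT and KO because one code numbers 4 columns and the other 2, as the sample titles do, and directions rest on that reading. The targeted genes could not check it, since their counts cover the whole gene and not only the floxed part. Tgfbr1 ran from 3858 to 5420 normalised counts in WT and was 5780 in KO-1 and 4568 in KO-2, and Tgfbr2 ran from 5327 to 7042 in WT and was 5784 and 5937. Markers of SMCs were abundant in each library, as the tissue label requires: Myh11 was at 232343 to 301065 normalised counts in WT, 302515 in KO-1 and 359715 in KO-2. Of 8 SMC markers, Myh11 was among the 2 with both KO libraries above every WT library (17.9% of all genes tested). For 3 markers both KO libraries were below every WT library (16.4% of all genes tested), and for 3 the groups overlapped. The library labelled KO-2 stood apart in several measures. Mitochondrial transcripts took 11.7% of its counts, against 3.38% in KO-1 and 2.62% to 4.44% in WT, and its fat and blood markers were high, as given with the results below. KO-1 stood apart in cardiac muscle markers. The transcript Gm42418 took a lower share of counts in KO-1 (0.692%) and KO-2 (0.445%) than in WT (1.89% to 4.67%). In bulk tissue, fewer cells of a type and less RNA per cell cannot be told apart.

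The proliferation genes took a small share of the RNA, and that share was higher in both KO libraries. They held 0.0297% to 0.0319% of the counts in WT, 0.0363% in KO-1 (95% Wilson interval 0.0356% to 0.0370%) and 0.0415% in KO-2 (0.0406% to 0.0424%). After scaling by DESeq2 size factors, the 45 genes summed to 7354 ± 210.4 normalised counts in WT (SD, n = 4), 7954 in KO-1 and 10025 in KO-2. The sum is mostly Mcm6, Anln, Pcna and Rrm1. Of the 45 genes, 31 had a WT mean under 100 normalised counts and 27 under 50, so that single genes were measured with wide error.

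DESeq2 compared KO with WT across 17070 genes. At an adjusted p under 0.05, 6 of the 45 genes differed, 13.3% against 10.4% of all genes tested, a share near the background. The direction was uneven. Mki67, Top2a, Cenpf, Prc1 and Ccna2 were higher in KO (11.1%, against 5.71% of all genes), each by more than 2-fold (3.54% of all genes). Mcm6 was lower (2.22%, against 4.69%), by less than 2-fold, a size that 2.1% of all genes passed downward and 5.64% in either direction. The other 39 genes did not pass. By an unadjusted p, 16 genes were under 0.05 (35.6%, against 22.2%). The fitted log2 fold change was above 0 for 42 of 45 genes (93.3%, against 50.9%), with a median of 0.67 over the 45 and of 0.01 over all genes tested. With edgeR's quasi-likelihood test, 2 of 44 genes passed, Mki67 and Mcm6, against 6.18% of all genes tested by it.

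**Figure D1:**
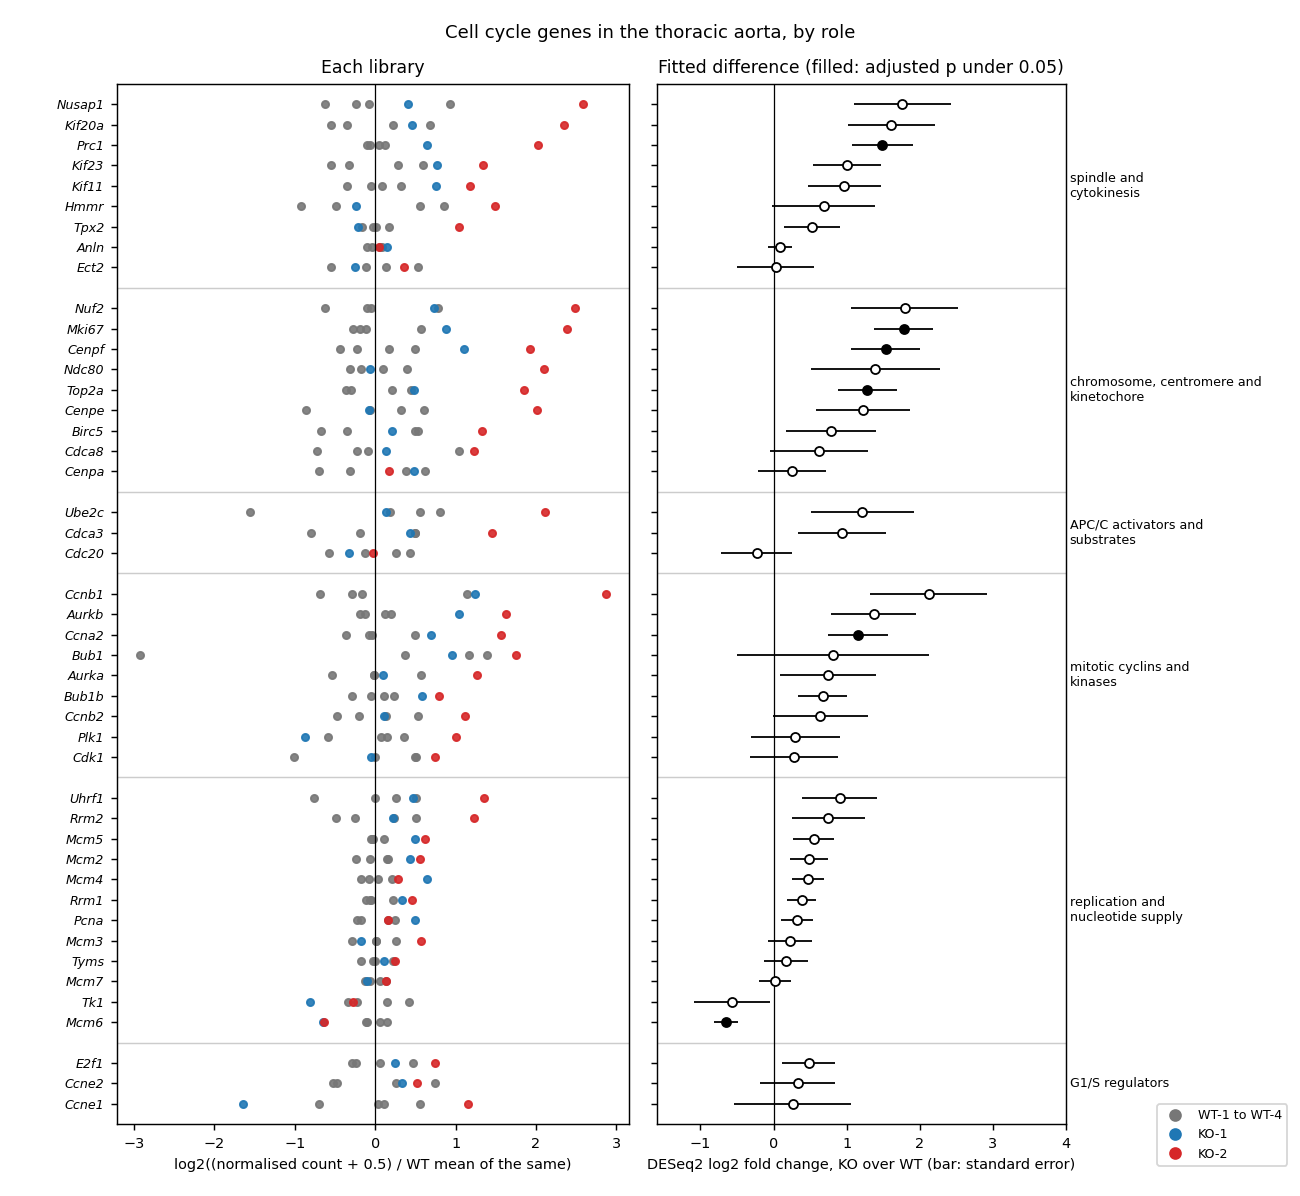
Every cell cycle gene by role: left, the log2 ratio of each library to the WT mean (after adding 0.5 to the normalised count; grey WT, blue KO-1, red KO-2); right, the DESeq2 log2 fold change with its standard error, filled where the adjusted p was under 0.05. KO-2 was the highest library for 36 of 45 genes, most of all in the mitotic roles, and Mcm6 was low in both KO libraries.

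The higher levels lay mostly in KO-2. It was the highest of the 6 libraries for 36 of 45 genes (80%, against 25.4% of all genes tested) and exceeded every WT library for 37 (82.2%, against 32.8%). KO-1 exceeded every WT library for 16 genes (35.6%, against 31.3%), a share near the background, and lay inside the WT range for 24. Both KO libraries were above every WT library for 14 genes (31.1%, against 17.9%), and both were below for Mcm6 alone (2.22%, against 16.4%). Without KO-2, DESeq2 called Mcm6 alone (1 of 45, against 7.02% of all genes tested in that fit), 3 genes had an unadjusted p under 0.05, and the median log2 fold change was 0.24. Without KO-1, 12 genes were called (against 15.9% of all genes tested in that fit), 11 of them higher, with a median of 1.09, and the 6 gained were Ccnb1, Cenpe, Nuf2, Kif20a, Nusap1 and Tpx2. Each of these fits has a single KO library, assumed to vary as the other libraries do.

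The 3 regulators of entry into S phase did not pass the test. E2f1, the transcription factor that activates replication genes, had the highest level of the 3. It was at 102.2, 136.5, 82.9 and 80.4 normalised counts in WT-1 to WT-4, 116.9 in KO-1 and 164.7 in KO-2, with KO-1 inside the WT range and KO-2 above it. The log2 fold change was 0.48 (95% interval -0.22 to 1.18, DESeq2 adjusted p = 0.467). Ccne1 and Ccne2, the E cyclins that activate CDK2, were at 13.6 to 33.2 and 29.7 to 71.9 in WT. Ccne2 was at 53.9 in KO-1 and 61.5 in KO-2, inside the WT range. Ccne1 was the more uneven of the pair, at 6.83 in KO-1 and 50.4 in KO-2, below and above every WT library. Exons of Ccne2 overlap those of Ints8 on the other strand.

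Of the 12 genes of replication and nucleotide supply, Mcm6 fell and the other 11 did not pass. Mcm6 (ENSMUSG00000026355.11, chr1:128331590-128359664, minus strand, GRCm38) encodes a subunit of the MCM helicase. WT-1 to WT-4 held 1627, 1614, 1817 and 1922 normalised counts of it, KO-1 held 1108 and KO-2 held 1116. The groups did not overlap, and the KO libraries lay close together. The WT mean was 1745 ± 150.4 (SD, n = 4) and the KO mean 1112 ± 5.84 (n = 2), a log2 fold change of -0.65 (SE 0.17, DESeq2 adjusted p = 0.00285; edgeR adjusted p = 0.0305). This difference did not depend on a single library: with each library left out in turn, the DESeq2 adjusted p stayed between 0.00195 and 0.0188.

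None of the other 5 subunits of the same ring passed in DESeq2 or edgeR, and their log2 fold changes lay between 0.02 and 0.55 (unadjusted p under 0.05 for Mcm4 and Mcm5). Mcm4 was at 347.5 to 453.4 normalised counts in WT, 613.9 in KO-1 and 475.7 in KO-2. Mcm5 was at 111.7 to 124.8 in WT, 162.4 in KO-1 and 177.0 in KO-2, and Mcm2 at 147.2 to 194.7 in WT, 235.2 and 255.7. For these 3 subunits both KO libraries lay above every WT library, with log2 fold changes of 0.47, 0.55 and 0.48 at DESeq2 adjusted p = 0.180, 0.220 and 0.254. Mcm3 was at 179.6 to 262.6 in WT, 194.2 in KO-1 and 324.5 in KO-2. Mcm7, whose transcript hosts Mir25 and Mir93 and overlaps exons of Cops6 and Ap4m1, was at 298.6 to 357.4 in WT, 305.8 and 360.1.

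Levels of different genes can be set roughly side by side per kb of exon. The length merges the exons of all annotated transcripts of a gene and can exceed that of the transcript expressed. Ranks and shares between genes thus depend in part on the annotation, whereas the ratio of one gene between libraries does not. On that scale Mcm6 was the highest of the 45 genes in WT, at 374.0 ± 32.2 normalised counts per kb (SD, n = 4), followed by Pcna at 301.2 ± 49.4, Anln at 160.3 ± 9.76 and Mcm4 at 109.6 ± 12.7. The lowest were Ndc80 at 1.38 ± 0.321 and Bub1 at 1.251 ± 0.964. Mcm6 made up 55.7% ± 2.77 of the summed level of the 6 MCM subunits per kb in WT, with a range of 54.1% to 59.9%. The share was 39.3% in KO-1 and 38.5% in KO-2, below every WT library. Mcm6 exceeded Mcm4, the next subunit, 3.08-fold to 3.69-fold in WT, 1.39-fold in KO-1 and 1.80-fold in KO-2. The other 5 subunits summed to 1233 ± 81.9 normalised counts in WT, 1511 in KO-1 and 1593 in KO-2. The subunits form the ring in equal numbers, and on this scale their transcripts were unequal in every library.

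**Figure D2:**
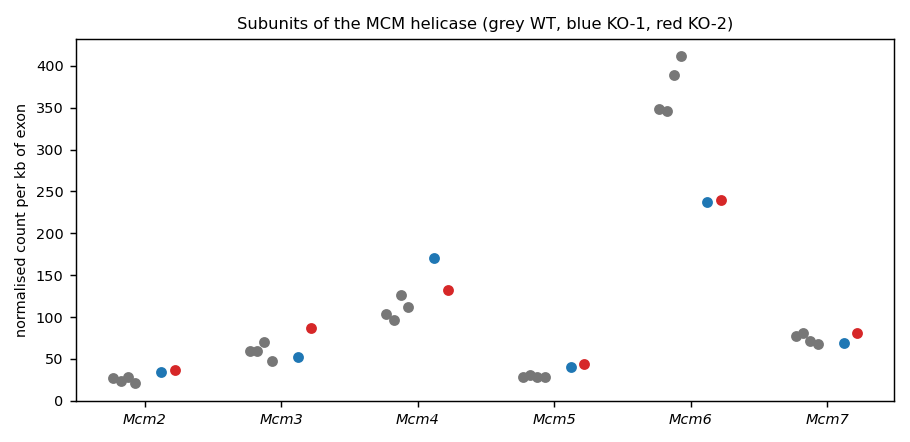
Normalised count per kb of exon for the 6 MCM subunits (grey WT-1 to WT-4, blue KO-1, red KO-2; the axis starts at 0). Mcm6 was the highest subunit in every library and was lower in both KO libraries, with a range of 54.1% to 59.9% of the summed level in WT and 39.3% and 38.5% in KO.

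None of the 6 genes outside the helicase passed in DESeq2 (Rrm1 alone at an unadjusted p under 0.05) or edgeR. Pcna, the sliding clamp of the polymerases, was at 612.9 to 849.9 normalised counts in WT, 1009 in KO-1 and 796.5 in KO-2, with overlapping groups. Rrm1, the large subunit of ribonucleotide reductase, was at 526.2 to 663.1 in WT, 712.5 and 778.1, with both KO libraries above WT (log2 fold change 0.39, DESeq2 adjusted p = 0.225). The groups overlapped for Rrm2, the small subunit of the same enzyme (30.3 to 61.1 in WT, 50.1 in KO-1 and 100.8 in KO-2). They also overlapped for Uhrf1, which guides maintenance of DNA methylation (22.0 to 53.9 in WT, 52.4 and 97.1), and for Tyms, which makes thymidylate (101.5 to 134.0 in WT, 124.4 and 136.4). Tk1, the thymidine kinase of S phase, was at 32.95 to 55.68 in WT, 23.5 in KO-1 and 34.4 in KO-2, a log2 fold change of -0.57 with a 95% interval of -1.59 to 0.45. Exons of Tk1 overlap those of Afmid.

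Among the 9 mitotic cyclins and kinases, Ccna2 rose and the other 8 did not pass. Ccna2 (ENSMUSG00000027715.9, chr3:36564865-36572150, minus strand) encodes cyclin A2, which acts in S phase and G2. WT-1 to WT-4 held 61.5, 89.8, 59.9 and 49.1 normalised counts, KO-1 held 103.2 and KO-2 held 189.3. Both KO libraries lay above every WT library. On the log2 scale KO was higher by 1.16 (SE 0.41, DESeq2 adjusted p = 0.0444), with an edgeR adjusted p of 0.0901. The DESeq2 adjusted p was 0.517 without KO-2, 0.116 without WT-1, 0.0998 without WT-3 and 0.109 without WT-4. Exons of Ccna2 share 510 bases with Exosc9 on the other strand.

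Ccnb1, the B cyclin that drives entry into mitosis, had the largest log2 fold change of the 45 genes, 2.12, and did not pass (95% interval 0.55 to 3.70, DESeq2 adjusted p = 0.0697). It was at 7.69, 19.8, 6.99 and 5.22 normalised counts in WT-1 to WT-4, 21.3 in KO-1 and 66.4 in KO-2. KO-1 was close to WT-2, and KO-2 lay far above the other libraries. Ccnb1 passed without WT-2 (DESeq2 adjusted p = 0.0243) or without KO-1 (0.0422). Aurkb, the kinase of the chromosomal passenger complex, was at 14.3 to 18.8 in WT, 34.2 in KO-1 and 51.6 in KO-2 (log2 fold change 1.37, DESeq2 adjusted p = 0.124). Bub1b, a kinase-like protein of the spindle checkpoint and the most abundant of these 9 genes, was at 64.8, 93.4, 76.9 and 85.6 in WT-1 to WT-4, 119.1 in KO-1 and 137.7 in KO-2 (log2 fold change 0.67, DESeq2 adjusted p = 0.209). For Aurkb and Bub1b the KO libraries were above every WT library (17.9% of all genes tested).

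For the other 5 genes of this role KO-1 did not exceed WT. Cdk1, the partner kinase of the A and B cyclins, was at 14.6 to 42.8 normalised counts in WT, 28.8 in KO-1 and 50.4 in KO-2. Plk1, a kinase acting from mitotic entry to cytokinesis, was at 24.0 to 46.9 in WT, 19.73 in KO-1 and 73.75 in KO-2. KO-1 was thus the lowest library for Plk1, and KO-2 was the highest for both. Ccnb2 was at 13.6 to 27.8 in WT, 20.5 and 41.8, and Aurka, the kinase of centrosomes and spindle poles, at 13.0 to 28.6 in WT, 20.5 and 46.7. Bub1 was barely detected, at 0 to 9.40 in WT, 6.83 and 12.3.

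The 3 activators and substrates of the anaphase-promoting complex (APC/C) did not pass in DESeq2 or edgeR, and none had an unadjusted DESeq2 p under 0.05. Cdc20, which activates the APC/C and is the most abundant of the 3, was at 64.8, 57.5, 32.0 and 43.8 normalised counts in WT-1 to WT-4, 37.9 in KO-1 and 46.7 in KO-2. Its groups overlapped, and its log2 fold change of -0.23 (95% interval -1.18 to 0.72) was the sole negative value among the 30 mitotic genes. Ube2c, the ubiquitin-conjugating enzyme of the complex, was at 8.35 to 45.03 in WT, 28.1 in KO-1 and 111.9 in KO-2. Cdca3, which triggers mitotic entry, was at 13.6 to 34.1 in WT, 32.6 and 66.4. Exons of Cdc20 overlap those of Elovl1, and exons of Ube2c those of Tnnc2, a gene of fast skeletal muscle.

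Mki67, Top2a and Cenpf rose among the 9 genes of chromosomes, centromeres and kinetochores, and the other 6 did not pass. Mki67 (ENSMUSG00000031004.8, chr7:135689784-135716361, minus strand) encodes Ki-67, the surface coat of mitotic chromosomes that is stained to count cycling cells. It was at 112.0, 190.4, 117.8 and 105.5 normalised counts in WT-1 to WT-4, 236.0 in KO-1 and 671.1 in KO-2. KO-1 was 1.80 times and KO-2 5.11 times the WT mean of 131.4 ± 39.6 (SD, n = 4). Its log2 fold change was 1.78 (SE 0.41, DESeq2 adjusted p = 0.000370), and the edgeR adjusted p was 0.0443. Without KO-2, the log2 fold change was 0.85 (DESeq2 adjusted p = 0.273), and without KO-1 it was 2.35 (2.83e-07).

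Top2a (ENSMUSG00000020914.17, chr11:98992943-99024189, minus strand) encodes topoisomerase IIα, which untangles sister chromatids. It was at 153.8, 131.1, 87.9 and 91.9 normalised counts in WT-1 to WT-4, 157.8 in KO-1 and 409.3 in KO-2. KO-1 barely exceeded WT-1, and KO-2 was 3.52 times the WT mean. The fitted difference was 1.28 on the log2 scale (SE 0.41, DESeq2 adjusted p = 0.0209), with an edgeR adjusted p of 0.101. The DESeq2 adjusted p was 0.654 without KO-2, 0.0622 without WT-2, 0.0831 without WT-3 and 0.0840 without WT-4.

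Cenpf (ENSMUSG00000026605.14, chr1:189640606-189688086, minus strand) encodes a large protein of the outer kinetochore that accumulates in G2. It was at 46.1, 36.8, 28.0 and 24.0 normalised counts in WT-1 to WT-4, 70.6 in KO-1 and 125.4 in KO-2. Both KO libraries stood clear of WT, KO-1 at 2.09 times and KO-2 at 3.72 times the WT mean. The fitted difference was 1.53 on the log2 scale (SE 0.48, DESeq2 adjusted p = 0.0174), the edgeR adjusted p was 0.0561, and without KO-2 the DESeq2 adjusted p was 0.354.

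**Figure D3:**
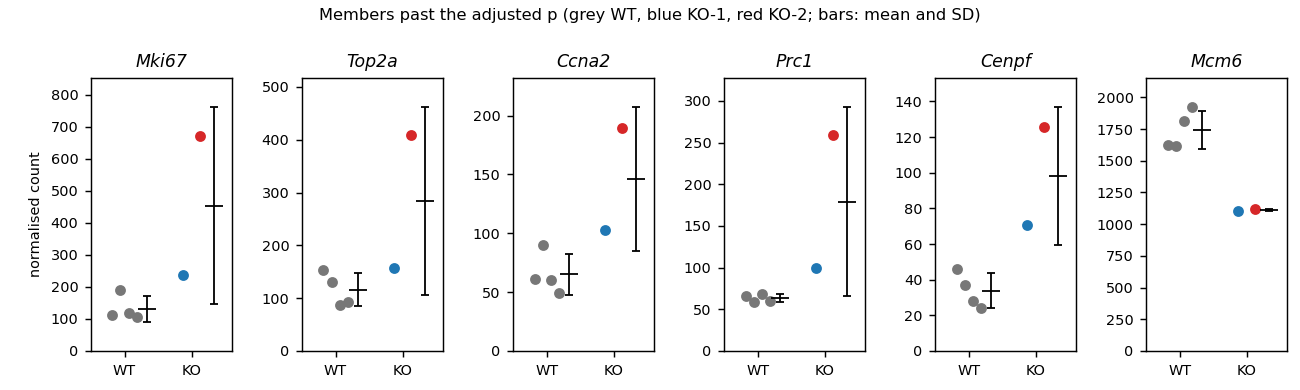
Normalised counts of the 6 genes with a DESeq2 adjusted p under 0.05 (grey WT-1 to WT-4, blue KO-1, red KO-2; the bars give the mean and SD of each group; each axis starts at 0). KO-2 lay far above KO-1 for the 5 higher genes, with Mki67 at 671.1 against 236.0, and the KO libraries were together at 1108 and 1116 for Mcm6.

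For the remaining genes of this role, high values were found in KO-2 and not in KO-1. Nuf2 and Ndc80, which form the kinetochore complex that holds microtubules, were at 7.99 to 21.9 and 6.99 to 11.7 normalised counts in WT. In KO-1 they were at 21.3 and 8.35, inside the WT range, and in KO-2 at 72.5 and 39.3. Cenpe, the kinesin that aligns chromosomes, was at 15.7 to 44.0 in WT, 27.3 in KO-1 and 118.0 in KO-2. Birc5 (survivin) and Cdca8 (borealin), which sit with Aurkb in the passenger complex, were at 14.98 to 35.1 and 14.0 to 48.5 in WT, 28.1 and 25.8 in KO-1, and 61.5 and 55.3 in KO-2. Cenpa, the histone H3 variant of centromeres, was an exception, at 37.6 to 94.5 in WT, 85.7 in KO-1 and 68.8 in KO-2, with both inside the WT range. Exons of Cdca8 overlap those of 9930104L06Rik.

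Prc1 rose among the 9 genes of the spindle and cytokinesis, and the other 8 did not pass. Prc1 (ENSMUSG00000038943.16, chr7:80294450-80316259, plus strand) encodes the protein that bundles microtubules of the central spindle. It was at 65.9, 59.3, 68.9 and 60.6 normalised counts in WT-1 to WT-4, 99.4 in KO-1 and 259.4 in KO-2. The WT libraries were close together, at 63.7 ± 4.52 (SD, n = 4), and both KO libraries lay above them. The fitted difference was 1.49 on the log2 scale (SE 0.42, DESeq2 adjusted p = 0.00674), the edgeR adjusted p was 0.0540, and without KO-2 the DESeq2 adjusted p was 0.434. Of the exon bases of Prc1, 911 are shared with Rccd1 on the other strand, and whether the counting used strand is not given in the sources used here.

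KO-2 was the highest library for each of the 3 motor proteins of the spindle. Kif20a, a motor of cytokinesis, was at 20.9 to 49.4 normalised counts in WT, 42.5 in KO-1 and 158.6 in KO-2 (log2 fold change 1.61, DESeq2 adjusted p = 0.0595, and 0.00445 without KO-1), and 1271 of its exon bases overlap Cdc23. Kif23, another motor of the midbody, was at 29.7 to 65.9 in WT, 74.4 and 110.6, and Kif11, which pushes spindle poles apart, at 21.9 to 35.1 in WT, 47.8 and 63.9. Both KO libraries were above WT for Kif23 and Kif11 (17.9% of all genes tested), with log2 fold changes of 1.01 and 0.97 (DESeq2 adjusted p = 0.168 and 0.226).

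Nusap1, Tpx2 and Hmmr, which bind microtubules of the spindle, were highest in KO-2 and within or below the WT range in KO-1. Nusap1 was at 15.7 to 46.9 normalised counts in WT, 32.6 in KO-1 and 148.7 in KO-2 (log2 fold change 1.76, DESeq2 adjusted p = 0.0669, passing without WT-3 at 0.0281 and without KO-1 at 0.00645). Tpx2, which activates Aurora A, was at 97.1 to 123.0 in WT, 93.3 and 223.7, and Hmmr at 13.0 to 45.8 in WT, 21.3 and 71.3. Ect2, which turns on RhoA at the division site, was at 26.0 to 55.3 in WT, 31.9 and 49.2, inside the WT range.

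Anln, the gene of the actin-binding protein anillin of the cleavage furrow, differed from the other mitotic genes in level. It was at 1351, 1408, 1519 and 1535 normalised counts in WT-1 to WT-4, 1609 in KO-1 and 1495 in KO-2. Per kb of exon, it was at 160.3 ± 9.76 in WT (SD, n = 4), above the 23.3 ± 2.29 of Tpx2 and the 13.1 ± 3.94 of Mki67. Its log2 fold change was 0.09 with a 95% interval of -0.23 to 0.42, so that a 2-fold change lay outside the interval. Anln was left out of the sum that follows because it would make up most of it.

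The 29 mitotic genes without Anln summed to 1310, 1470, 1112 and 976.3 normalised counts in WT-1 to WT-4, 1577 in KO-1 and 3601 in KO-2. KO-1 was thus 1.295 times and KO-2 2.96 times the WT mean of 1217 ± 217.3 (SD, n = 4). KO-2 was the highest of the 6 libraries for 26 of these 29 genes, against 25.4% of all genes tested. The 12 genes of replication and nucleotide supply summed to 4261 to 4818 in WT, 4591 in KO-1 and 4652 in KO-2, both inside the WT range. Without Mcm6, their most abundant gene, the other 11 summed to 2647 to 3001 in WT, 3484 in KO-1 and 3536 in KO-2, at 1.26 and 1.28 times the WT mean. KO-2 was the highest library for 8 of the 12 (66.7%, against 25.4% of all genes tested).

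Sums of fat, red blood cell and B cell markers were also highest in KO-2. Of all genes tested, 5.71% passed as higher in KO, the share to set beside the marker counts that follow. In KO-2, where the mitotic genes were highest, markers of brown fat summed to 14208 normalised counts, against 1217 to 1582 in WT and 4092 in KO-1, and 5 of 7 passed the test as higher in KO. White fat markers summed to 39631 in KO-2, against 2714 to 5294 and 5662 (3 of 7 higher). Red blood cell markers summed to 61892, against 859.3 to 6001 and 11134 (5 of 6 tested higher, with Klf1 at 0 in all libraries). B cell markers summed to 581.4, against 29.6 to 84.6 and 93.3 (2 of 8 tested higher).

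Mesothelial, T cell and neutrophil marker sums were also highest in KO-2. Mesothelial markers summed to 676.2 to 865.8 normalised counts in WT, 1464 in KO-1 and 2759 in KO-2 (5 of 7 higher). T cell and thymocyte markers summed to 18.8 to 144.8 in WT, 151.0 and 271.6. Of those 13 genes 9 were tested, and none passed in DESeq2 (2 at an unadjusted p under 0.05) or in edgeR. Neutrophil markers summed to 24.0 to 73.6 in WT, 178.3 and 234.8 (2 of 4 tested higher), with the defining genes Ly6g, Mpo and Elane at 0 in all libraries. Cardiac muscle markers, in contrast, were high in KO-1, at 29061 against 3095 to 4441 in WT and 4185 in KO-2 (4 of 8 higher).

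Macrophage, endothelial and fibroblast markers had close sums in the KO libraries, though single genes of each list did not all go alike. KO-1 was the highest of the 6 libraries for 7 of 8 fibroblast, 3 of 8 endothelial and 3 of 8 macrophage markers (20.7% of all genes tested). KO-2 was the highest for the other 1, 5 and 5 (25.4% of all genes tested). Macrophage markers summed to 7858 to 9480 normalised counts in WT, 14126 in KO-1 and 15196 in KO-2, and 7 of 8 were higher. Endothelial markers summed to 12047 to 22210 in WT, 31966 and 31039 (4 of 8 higher), and fibroblast markers to 154512 to 167417, 192957 and 191068 (2 of 8 higher). SMC markers summed to 883248 to 1042570 in WT, 838705 and 998245, and Schwann cell markers to 2206 to 6099, 2813 and 5888. No gene of these last 2 lists passed in DESeq2 (4 and 2 at an unadjusted p under 0.05) or edgeR. The part of these cell types, and of the mitochondrial share of 11.7% in KO-2, in the levels of the mitotic genes was not tested, and bulk RNA does not show which cells hold these transcripts.

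**Figure D4:**
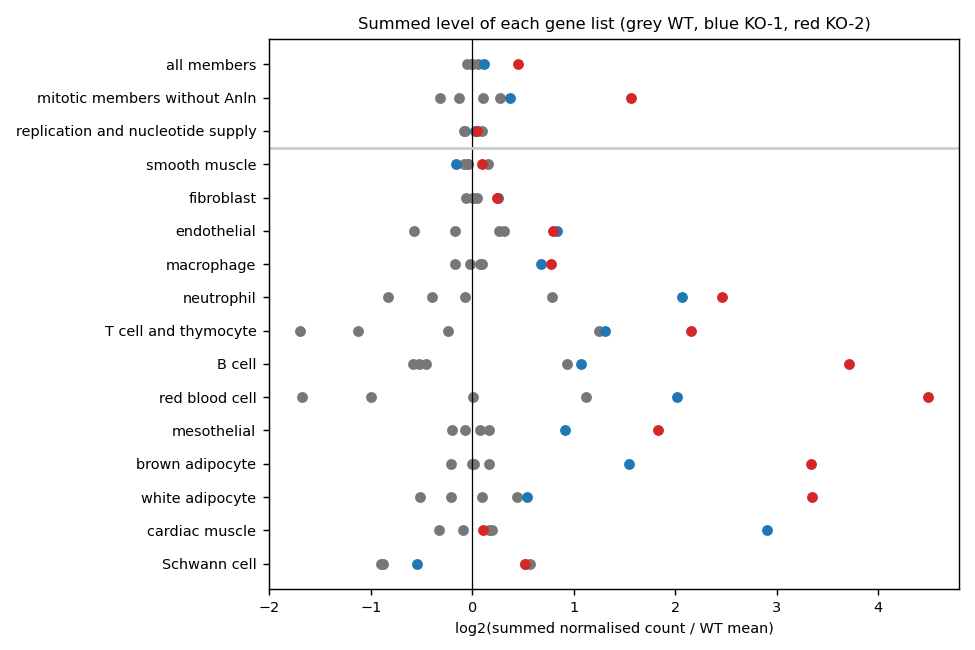
Summed normalised count of each gene list per library, as the log2 ratio to the WT mean (grey WT-1 to WT-4, blue KO-1, red KO-2), with the cell cycle genes above the line and the cell type markers below. The mitotic genes without Anln were at 1577 in KO-1 and 3601 in KO-2. Fat, red blood cell, B cell, T cell, neutrophil, macrophage and mesothelial markers were also highest in KO-2, whereas cardiac muscle markers were highest in KO-1.

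A further 110 cell cycle genes, listed by function in 9 lists, give the setting of these 45. Of the 104 with an adjusted p, 4 were higher and 1 was lower in KO, 4.81% against 10.4% of all genes tested, with a median log2 fold change of 0.30. The largest list, 38 further mitotic genes, was like the 30 above in its KO-2 levels and median, but not in the share called. KO-2 was the highest library for 29 (76.3%, against 25.4%), and the median log2 fold change was 0.85. Of 35 tested, 1 passed as higher (2.86%, against 16.7% of the 30 above and 5.71% of all genes). None passed by more than 2-fold (3.54% of all genes). An unadjusted p under 0.05 was found for 17.1%, against 22.2% of all genes. Smc2 alone of these passed, a condensin subunit at 258.9 to 357.0 normalised counts in WT, 437.1 in KO-1 and 558.0 in KO-2 (log2 fold change 0.68, DESeq2 adjusted p = 0.0383, edgeR adjusted p = 0.0722, and DESeq2 adjusted p = 0.311 without KO-2, 0.0958 without WT-2, 0.0726 without WT-3 and 0.0780 without WT-4). Origin licensing and firing (12 tested), polymerases and clamp loader (12), and pocket proteins with the other E2F factors (12) held no gene past the test in DESeq2 (1, 1 and 3 at an unadjusted p under 0.05) or in edgeR.

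Among the CDK inhibitors, Cdkn1a rose and the others did not pass. Cdkn1a, which encodes the CDK inhibitor p21, rose from 1112, 986.9, 977.6 and 774.8 normalised counts in WT-1 to WT-4 to 2154 in KO-1 and 1779 in KO-2. The KO libraries were close, and the lower of them exceeded every WT library. Its log2 fold change was 1.03 (SE 0.20, DESeq2 adjusted p = 2.2e-05, edgeR adjusted p = 0.0185). Of 7 CDK inhibitors, 6 of them tested, it alone passed. Cdkn1b (p27) was at 1466 to 2391 in WT, 1738 and 1802, and Cdkn2b (p15), a known target of TGF-β, at 51.2 to 65.6 in WT, 79.7 and 45.5. Their log2 fold changes were -0.22 and 0.09, with 95% intervals of -0.65 to 0.22 and -0.74 to 0.92.

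Of the 11 checkpoint genes, 10 of them tested, Ccng1 rose and Wee1 fell. Ccng1, a p53 target that encodes cyclin G1, was at 2024 to 2548 normalised counts in WT, 4494 in KO-1 and 4355 in KO-2 (log2 fold change 0.9995, SE 0.17, DESeq2 adjusted p = 3.33e-07, edgeR adjusted p = 0.00834). It was above every WT library in both KO libraries, by close amounts. Wee1, the kinase that holds CDK1 inactive before mitosis, was at 590.9, 426.6, 849.8 and 963.8 in WT-1 to WT-4, 309.6 in KO-1 and 308.5 in KO-2. WT libraries differed more among themselves than the KO libraries did. Its log2 fold change was -1.20 (SE 0.31, DESeq2 adjusted p = 0.00267), with an edgeR adjusted p of 0.0702 and a DESeq2 adjusted p of 0.0652 without KO-2.

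Myc, which drives cells into the cycle and is held down by TGF-β in many cell types, was the remaining gene to pass. Of the 7 known TGF-β cytostatic targets, 2 were higher, Myc and Cdkn1a, where 5.71% of all genes tested were higher. The 7 had a median log2 fold change of 0.09. The list holds CDK inhibitors, through which TGF-β acts, Myc, which it lowers, and genes of the Id family, so that this count mixes directions. Myc was at 51.9 to 110.5 normalised counts in WT, 166.2 in KO-1 and 217.6 in KO-2 (log2 fold change 1.19, SE 0.38, DESeq2 adjusted p = 0.0194, edgeR adjusted p = 0.0728). Without KO-2 its DESeq2 adjusted p was 0.273, and without WT-4 it was 0.0629. Ccnd1, the D cyclin of G1, was at 418.4 to 611.8 in WT, 767.9 and 672.4 (log2 fold change 0.46, DESeq2 adjusted p = 0.185), and its G1 list of 6 genes held none past the test (2 at an unadjusted p under 0.05, none in edgeR). Foxm1, the transcription factor that activates mitotic genes with MuvB, was at 34.1 to 71.4 in WT, 85.0 in KO-1 and 157.3 in KO-2 (log2 fold change 1.245, DESeq2 adjusted p = 0.0632, passing without WT-1 at 0.0430 and without KO-1 at 0.0384). Both KO libraries were above WT for these 3 genes (17.9% of all genes tested). None of the 7 genes of MuvB, Mybl2 and Foxm1 passed (1 at an unadjusted p under 0.05, none in edgeR).

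**Figure D5:**
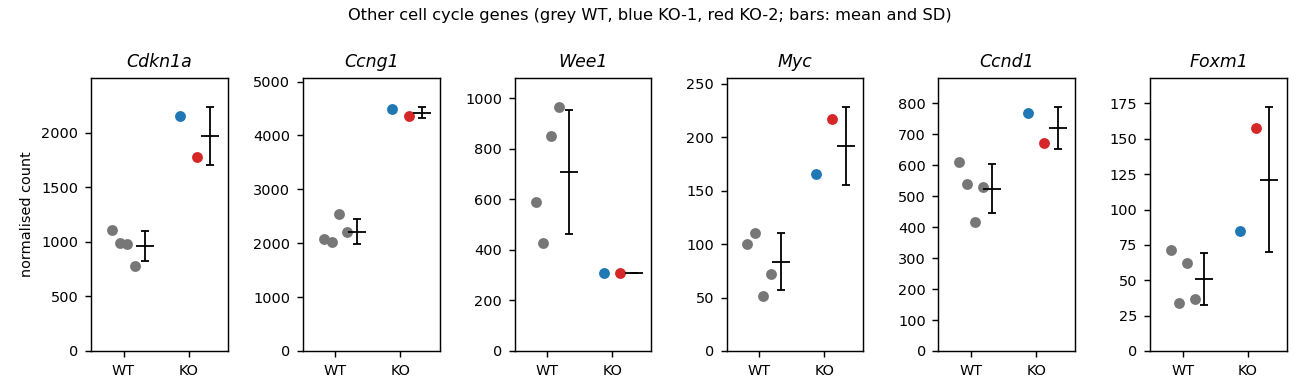
Normalised counts of 6 regulators of the cell cycle (grey WT-1 to WT-4, blue KO-1, red KO-2; the bars give the mean and SD of each group; each axis starts at 0). Cdkn1a, Ccng1 and Wee1 had close values in the KO libraries, at 4494 and 4355 for Ccng1, whereas Foxm1 was at 85.0 in KO-1 and 157.3 in KO-2.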

How the data were processed

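The authors sequenced RNA of thoracic aortas, trimmed reads with Trim Galore, aligned them to GRCm38 with HISAT2 and quantified GENCODE genes with StringTie, and the submitters' processing notes also name DESeq and DESeq2. The authors deposited an estimated count for each gene, as whole numbers. How StringTie coverage became whole numbers, and whether counting used strand, is not given in the sources used here. Columns were matched to WT and KO by how many replicates each column code numbers. Depth was 19650983 to 28860598 counts per library, and 27151 of 52636 genes had none. Wilson intervals (95%) cover counting error only, and a count of 0 was read as allowing up to 3 counts.

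KO was compared with WT over all genes by the two-sided DESeq2 Wald test (version 1.42.0, R 4.3.3) with Benjamini-Hochberg adjustment, the study's test, at an adjusted p under 0.05. Size factors scaled the counts, and genes that independent filtering left out have no adjusted p (17070 kept one). Levels are normalised counts, also per kb of merged GENCODE M21 exons. The 14 other fits used edgeR 4.0.16 (quasi-likelihood, with and without its count filter), TMM factors, total counts, a mean normalised count of at least 10, no independent filtering, a test against a 2-fold change, the replicate number as a block, and each library left out. The fit was tested on simulated data. Summaries and motif searches used Python 3.11.15 and pandas 2.3.3.

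The gene group, its roles, the 9 lists of other cell cycle genes and the 13 lists of cell type markers were chosen with earlier results of these data known. All 45 genes were named, in full where the adjusted p was under 0.05 or the level was the highest of its role. Of the other cell cycle genes, those past the adjusted p were named (at most 4 per list) with Ccnd1, Cdkn1a, Cdkn1b, Cdkn2b, Myc and Foxm1, and markers were given as lists, naming Myh11, Klf1, Ly6g, Mpo and Elane (1 other marker is not reported here). Promoter windows came from RefSeq.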

Additional observations from a re-analysis of the deposited data

Results flagged for a closer look

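Among 63 values checked, 1 WT library lay far from the other 3 for 4 genes, where chance gives about 3.15. These were Rrm1 in WT-3 (663.1 normalised counts, against 526.2 to 548.2), Mcm5 in WT-2 (124.8, against 111.7 to 113.1), Ccnb1 in WT-2 (19.8, against 5.22 to 7.69) and Mki67 in WT-2 (190.4, against 105.5 to 117.8). WT-2 held 3 of the 4. Without WT-2, the log2 fold change of Mki67 was 2.02 (DESeq2 adjusted p = 0.000256), and Ccnb1 passed at 2.71 (DESeq2 adjusted p = 0.0243).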

How the results depend on the processing

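The 5 higher genes depended on the fit and on KO-2, whereas the log2 fold change of Mcm6 was -0.69 to -0.60 with each library left out. Mcm6 also depended on the fit in part: it did not pass in 2 fits, the test against a 2-fold change and the replicate block. Of the 45 genes, edgeR called 1 higher with its filter and 2 without, also past 2-fold. A test against a 2-fold change called 0 higher and 0 lower. With each library left out, 0 to 11 were higher (also past 2-fold) and the median log2 fold change was 0.24 to 1.09. Of the other 104 cell cycle genes tested, 2 and 2 were higher and 0 and 0 lower in edgeR, 8 were higher with total counts as scaling, 7 were higher at a mean of at least 10, and 0 were higher and 0 lower against 2-fold. With each library left out, 2 to 11 were higher, 0 to 2 lower, with a median of 0.20 to 0.34. Of all genes, edgeR called 551 and 558 higher and 445 and 373 lower, the 2-fold test 64 and 50, and the leave-one-out fits 519 to 1148 higher and 547 to 1291 lower. The summed level of the 45 genes over the WT mean was 1.08 in KO-1 and 1.36 in KO-2, and 1.17 and 1.33 with total counts. It was 1.22 and 1.59 without Mcm6, the most abundant of the 45, and 1.16 and 1.45 without mitochondrial genes in the library size. A CHR read as TTTGAA alone was held by 53.8% of promoters.

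Whether equal replicate numbers pair the libraries is not known. Deviations from the group means correlated at -0.087 between WT-1 and KO-1 and at 0.014 between WT-2 and KO-2 (15511 genes). This cannot decide the question, because deviations of 2 KO libraries mirror each other: WT-1 with KO-2 gave 0.087. In the block fit, WT-3 and WT-4 had no KO library of the same number. With the replicate block, 0 of the 45 genes were higher, also past 2-fold, and 0 lower, with a median of 0.45. Of the other cell cycle genes 1 was higher and 0 lower, and of all genes 327 were higher and 301 lower.

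Signs of log2 differences turned for some genes, none of them past the threshold where the sign was negative. In the block these were Ccne1 (-0.57), Mcm7 (-0.0745), Cdk1 (-0.16), Plk1 (-0.0343), Cenpa (-0.18), Hmmr (-0.0781) and Cdkn2b (-0.0595). With each library left out, values ran from that without KO-2 to that without KO-1 for Ccne1 (-1.77 to 1.10), Mcm3 (-0.17 to 0.56), Mcm7 (-0.0895 to 0.14), Cdk1 (-0.16 to 0.64), Plk1 (-0.91 to 0.98), Ube2c (-0.0843 to 1.90), Cenpe (-0.16 to 1.94, passing without KO-1), Ndc80 (-0.0910 to 2.14), Tpx2 (-0.21 to 1.04, passing without KO-1), Hmmr (-0.41 to 1.32) and Ect2 (-0.30 to 0.32). Cdca8 ran from -0.00842 without KO-2 to 1.11 without WT-2, and Cdkn2b from -0.38 without KO-1 to 0.44 without KO-2. Mcm7 also turned without WT-3 or WT-4, and Ect2 without WT-2 or WT-3. The cause of these changes was not tested. KO had 2 libraries, and 27 of the 45 genes were under 50 normalised counts in WT.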
